A study of Mus musculus with 24 samples.

Results

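The late neutrophil granule genes described here are 10 genes, Wfdc21, Padi4, Lcn2, Ltf, S100a8, S100a9, Camp, Ngp, Mmp8 and Mmp9, taken by name from the 18194 genes that had a probe set with a single gene symbol. They were represented by 11 probe sets of the 45101 on the array, with 2 for Mmp9 and 1 for each of the others. Transcript levels were measured with Affymetrix arrays in sorted marrow cells of mice of the strain 129ola, at an age of 8 to 12 weeks, and are given as log2 intensities after robust multi-array averaging (RMA). The groups were wildtype B cell progenitors (2 arrays), myeloid progenitors (MP) of Dnmt1 hypomorph mice (3 arrays) and of wildtype mice (3 arrays), and haematopoietic stem cells (HSC) of Dnmt1 hypomorph mice (3 arrays) and of wildtype mice (2 arrays). Hypomorph mice had the genotype Dnmt1-/chip, which combines a null allele with an allele of reduced function, and wildtype mice were Dnmt1+/+. The labels name no cell type specific driver of these alleles, and they give neither the sorting gates nor the number of mice behind an array. Whether each array stands for another animal is not stated in the labels, and p-values therefore measure only the spread between these arrays. B progenitors were profiled in the wildtype only.

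Neutrophils fill their granules in a fixed order as they mature. Primary granules with myeloperoxidase and elastase are made by promyelocytes, and the specific and gelatinase granules are made later, when cell division has nearly ended, under factors that include C/EBP epsilon. The late products are therefore used as markers of maturing neutrophils and are usually low in stem and progenitor cells. Lcn2 encodes lipocalin 2, which binds iron-loaded siderophores, and Ltf encodes lactoferrin, an iron-binding protein. Camp encodes the cathelicidin precursor, Ngp a cystatin-like granule protein, Mmp8 neutrophil collagenase and Mmp9 gelatinase B. S100a8 and S100a9 encode the subunits of calprotectin, which is cytosolic, and Padi4 encodes a nuclear enzyme that converts arginine of histones to citrulline, so these 3 belong to the late neutrophil programme without being granule proteins. Wfdc21 encodes a small secreted protein of the whey acidic protein family. Dnmt1 copies CG methylation to the daughter strand at replication.

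The promoters of S100a8, S100a9, Camp, Ngp and Padi4 are shown because S100a8, S100a9, Camp and Ngp varied together between arrays of a group while Padi4 did not vary with them, and because the enzyme that was reduced acts on CG dinucleotides. Each line gives the 250 bases before the annotated start, 5′ to 3′ on the strand of the gene, with every CG in capitals, from RefSeq for build GRCm38.p6. S100a8 (plus strand) lies at chr3:90668821-90669070, S100a9 (minus strand) at chr3:90695722-90695971, Camp (minus strand) at chr9:109849457-109849706, Ngp (plus strand) at chr9:110419558-110419807 and Padi4 (minus strand) at chr4:140774204-140774453.
S100a8: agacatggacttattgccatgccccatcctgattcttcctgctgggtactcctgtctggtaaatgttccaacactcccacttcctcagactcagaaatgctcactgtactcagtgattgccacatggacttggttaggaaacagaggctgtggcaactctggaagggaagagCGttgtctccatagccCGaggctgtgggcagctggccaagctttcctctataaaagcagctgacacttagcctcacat
S100a9: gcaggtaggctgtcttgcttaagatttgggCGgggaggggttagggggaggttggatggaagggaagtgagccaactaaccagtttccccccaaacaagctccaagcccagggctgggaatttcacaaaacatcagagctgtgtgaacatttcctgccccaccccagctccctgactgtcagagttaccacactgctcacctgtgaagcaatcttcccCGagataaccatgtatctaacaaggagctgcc
Camp: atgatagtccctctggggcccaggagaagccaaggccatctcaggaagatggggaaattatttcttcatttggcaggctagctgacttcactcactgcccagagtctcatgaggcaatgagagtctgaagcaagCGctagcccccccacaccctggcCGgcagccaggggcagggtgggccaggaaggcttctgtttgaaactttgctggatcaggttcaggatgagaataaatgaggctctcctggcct
Ngp: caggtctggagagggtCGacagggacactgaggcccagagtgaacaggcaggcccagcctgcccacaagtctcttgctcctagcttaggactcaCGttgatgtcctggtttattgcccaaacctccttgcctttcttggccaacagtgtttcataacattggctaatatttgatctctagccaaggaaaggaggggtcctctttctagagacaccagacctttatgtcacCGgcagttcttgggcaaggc
Padi4: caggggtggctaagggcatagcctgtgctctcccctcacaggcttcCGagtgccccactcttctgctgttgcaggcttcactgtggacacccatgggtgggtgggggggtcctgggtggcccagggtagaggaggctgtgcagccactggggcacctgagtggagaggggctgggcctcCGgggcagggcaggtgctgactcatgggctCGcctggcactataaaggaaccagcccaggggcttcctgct

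These windows held few CG dinucleotides, with 2 in S100a8, S100a9 and Camp and 3 in Ngp and Padi4. Of the 10 genes, 8 had a promoter in the RefSeq table, all but Wfdc21 and Mmp9. Their median was 3 CG, against a median of 6 and quartiles of 2 and 16 over 32851 promoters. The C/EBP-type motif TTGCNNAA, searched on both strands, was present in 5 of the 8 promoters (Lcn2, S100a9, Mmp8, Ngp and Ltf), against 9.56% of all promoters. The PU.1-type motif GAGGAAGT, also searched on both strands, was present in 2 of 8 (S100a8 and Mmp8), against 2.44% of all promoters. Matches to the C/EBP-type and PU.1-type motifs did not overlap in these 8 windows, and such matches describe letters and not binding. S100a8 and S100a9 are neighbours on chromosome 3, and Camp, Ngp, Ltf and Mmp8 all lie on chromosome 9, with other genes between them.

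The genotype labels were borne out by Dnmt1, which averaged 8.14 ± 0.12 in hypomorph MP against 11.48 ± 0.22 in wildtype MP (SD, n = 3 each), and 8.94 ± 0.42 in hypomorph HSC (SD, n = 3) against 11.69 ± 0.15 in wildtype HSC (SD, n = 2). It fell by 3.34 (SE 0.22, limma adjusted p = 7.23e-06) in MP and by 2.75 (SE 0.24, adjusted p = 2.83e-05) in HSC. Array medians over all probe sets lay between 4.56 and 4.74, and with 2 or 3 arrays a group each value has limited precision. The labelled cell types also carried their markers, fixed as lists. The mean of 8 myeloid progenitor markers per array was 11.56 to 11.73 in hypomorph MP and 11.61 to 11.72 in wildtype MP, 8.87 to 9.56 in hypomorph HSC, 8.14 to 8.32 in wildtype HSC and 4.32 to 4.33 in B progenitors. The mean of 6 HSC markers was 9.57 to 10.12 in hypomorph HSC and 10.01 to 10.32 in wildtype HSC, 7.17 to 7.71 in hypomorph MP and 7.57 to 8.32 in wildtype MP, and that of 7 B progenitor markers was at least 10.99 in B progenitors, against at most 5.28 on the other arrays. Of 6 surface markers of mature neutrophils, Cd177, Itgb2l, Cxcr2 and Itgam had a usable probe set, and Ly6g and Mmp25 had none. The mean of these 4 per array was 3.63 to 4.05 in hypomorph MP, 3.63 to 3.84 in wildtype MP, 3.34 to 3.92 in hypomorph HSC, 3.67 to 3.69 in wildtype HSC and 3.42 to 3.44 in B progenitors. None of the 4 had a group mean at or above 4.64, the median of all values, apart from Itgb2l in wildtype HSC at 4.99. The values come without detection calls, and for dim genes a level above background is therefore not established.

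**Figure D1:**
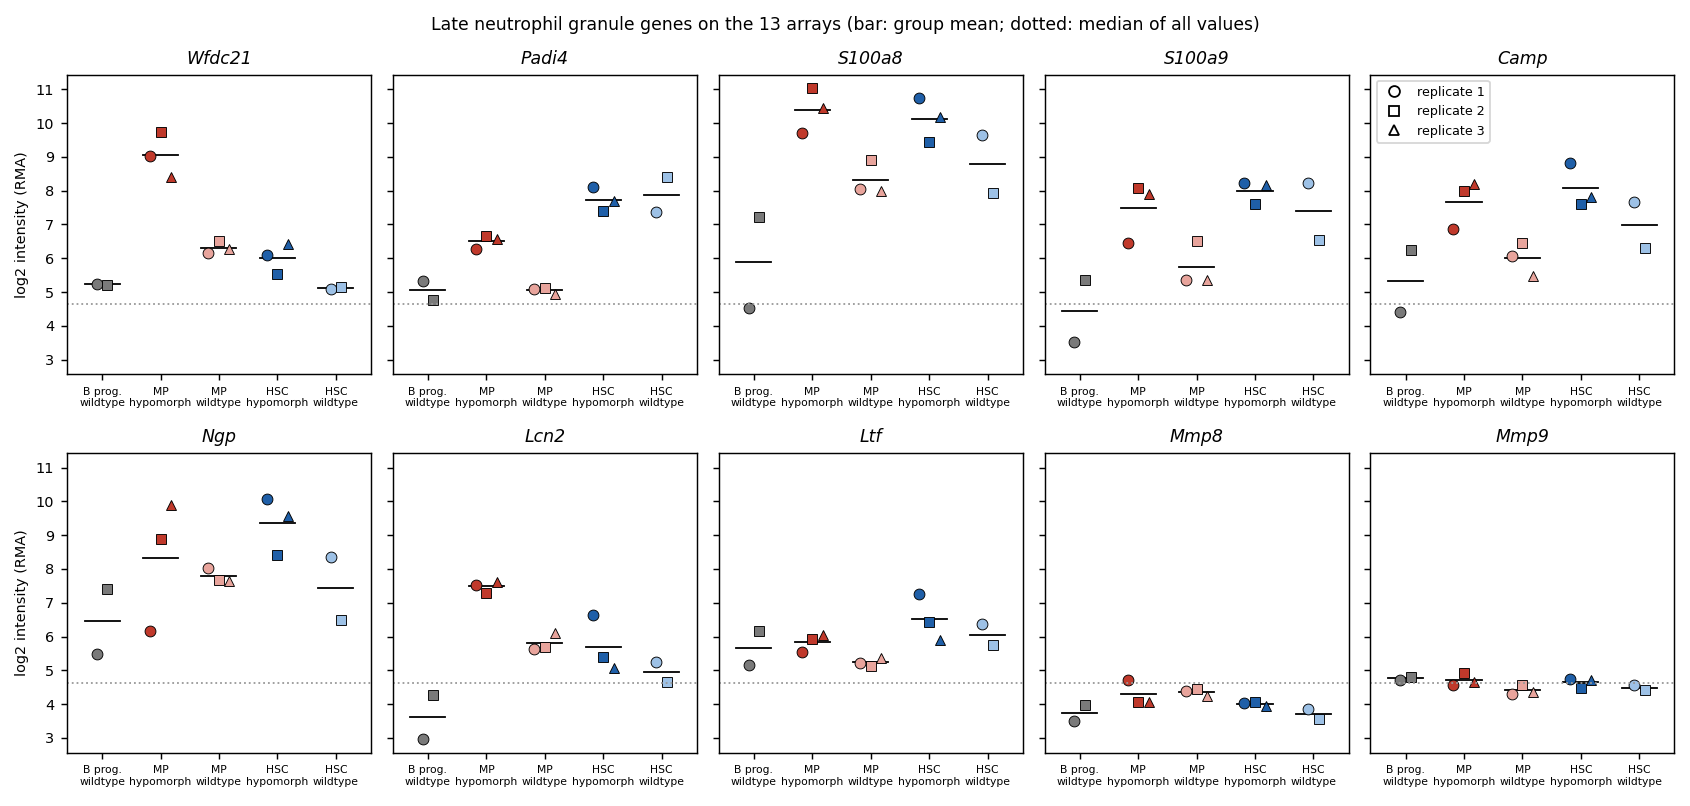
Log2 RMA intensity (vertical axes) of the 10 genes on each of the 13 arrays, with the brighter probe set shown for Mmp9, group means as bars and the median of all values, 4.64, as a dotted line. Wfdc21 lay at 8.42 and above on the hypomorph MP arrays and at 6.52 or below elsewhere, while Mmp8 and Mmp9 stayed near or below the dotted line.

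In myeloid progenitors of hypomorph mice Wfdc21 and Padi4 rose. Of the 9 genes tested, these 2 were called higher at a limma adjusted p under 0.05 and 0 were called lower, in a comparison in which 0.337% of all 12745 genes were called higher, 0.251% lower and 0.588% in either direction. The remaining gene, Mmp8, reached 4.64 on a single array and was not tested. All 9 log2 fold changes were positive, with a median of 1.67 against -0.02 over all genes tested. In 6 of the 9, every hypomorph MP array lay above every wildtype MP array, which held for 11.3% of all genes. The genes were chosen with earlier results of these data known, so these counts are not free of that choice. In bulk samples such as these, more cells of a type and more RNA per cell cannot be told apart.

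Wfdc21 measured 9.02, 9.74 and 8.42 in hypomorph MP, against 6.16, 6.52 and 6.28 in wildtype MP. The 3 hypomorph arrays were the highest of all 13, and the gap between the groups exceeded the range within either. The difference was 2.74 (SE 0.30, limma adjusted p = 0.000499), or 6.69-fold, and the adjusted p stayed at or below 0.00439 when any of the 13 arrays was left out.

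Padi4, the histone-citrullinating enzyme, measured 6.28, 6.66 and 6.57 in hypomorph MP, against 5.09, 5.13 and 4.95 in wildtype MP. Both groups were tight and did not overlap, and wildtype MP were as low as B progenitors. The difference was 1.44 (SE 0.27, limma adjusted p = 0.0255), or 2.72-fold. The size varied little, from 1.37 to 1.56, when an array was left out, but the adjusted p was 0.0598, 0.140 and 0.0802 without hypomorph MP replicate 1, 2 or 3, and 0.118 and 0.141 without wildtype MP replicate 1 or 3.

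Neither iron-sequestering gene passed the threshold in this fit. Lcn2 measured 7.54, 7.29 and 7.62 in hypomorph MP, against 5.63, 5.70 and 6.11 in wildtype MP, with no overlap. Its difference of 1.67 (SE 0.39) did not pass at a limma adjusted p of 0.0889. This p reached 0.0193 and 0.0411 without hypomorph HSC replicate 1 or 3, arrays that enter this comparison through the shared estimate of spread alone. It was 0.00514 when the 6 MP arrays were fitted alone and 0.0494 when the 11 HSC and MP arrays were normalized again. With array weights, where 3901 genes were called in all, it was 0.000752. Under the remaining settings, and without any other array, it stayed above the threshold, for example at 0.138 without the filter on dim genes. For Ltf the values were 5.55, 5.92 and 6.04 in hypomorph MP, against 5.22, 5.14 and 5.37 in wildtype MP, again without overlap, but the difference was 0.60 (SE 0.33, adjusted p = 0.412).

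The calprotectin subunits and Camp had sizeable differences on widely spread arrays. S100a8 measured 9.71, 11.03 and 10.46 in hypomorph MP, against 8.06, 8.92 and 7.99 in wildtype MP. The groups did not overlap, and the difference was 2.08 (SE 0.62, limma adjusted p = 0.183). Its probe set is of a type whose probes may match transcripts of more than 1 gene. S100a9 measured 6.46, 8.08 and 7.89 in hypomorph MP, against 5.36, 6.51 and 5.35 in wildtype MP, so that hypomorph replicate 1 lay just under wildtype replicate 2. The difference was 1.74 (SE 0.55, adjusted p = 0.202). Camp measured 6.86, 7.99 and 8.19 in hypomorph MP, against 6.07, 6.44 and 5.49 in wildtype MP, without overlap, and differed by 1.68 (SE 0.52, adjusted p = 0.194). None of these 3 passed the threshold in this fit, but S100a8 did (adjusted p = 0.0365) when the 6 MP arrays were fitted alone, and all 3 did when arrays were weighted, at an adjusted p of 0.00148 for S100a8, 0.00261 for S100a9 and 0.00264 for Camp. Both settings called more genes in all, 164 with the MP arrays alone and 3901 with weights, against 75 in this fit. Under every other setting, and without any 1 array, all 3 missed the threshold. Without the filter on dim genes, for example, the limma adjusted p was 0.248 for S100a8, 0.274 for S100a9 and 0.258 for Camp.

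Ngp gave no stable direction in MP. It measured 6.18, 8.88 and 9.88 in hypomorph MP, against 8.02, 7.69 and 7.64 in wildtype MP. The hypomorph arrays lay on both sides of the wildtype ones, over a range of 3.70 against 0.37. The difference was 0.53 (SE 0.80, limma adjusted p = 0.774), and it was 1.60 without hypomorph replicate 1 and -0.25 without hypomorph replicate 3.

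The matrix metalloproteinase genes stayed dim. Mmp8 measured 4.72, 4.08 and 4.08 in hypomorph MP, against 4.39, 4.44 and 4.23 in wildtype MP, and the groups overlapped. In a fit without the filter on dim genes its difference was -0.06 (SE 0.20, limma adjusted p = 0.929). The brighter Mmp9 probe set measured 4.56, 4.92 and 4.65 in hypomorph MP, against 4.31, 4.56 and 4.36 in wildtype MP, with a difference of 0.30 (SE 0.17, adjusted p = 0.432). The dimmer Mmp9 probe set lay between 3.56 and 4.45 in hypomorph MP and between 3.33 and 3.56 in wildtype MP.

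**Figure D2:**
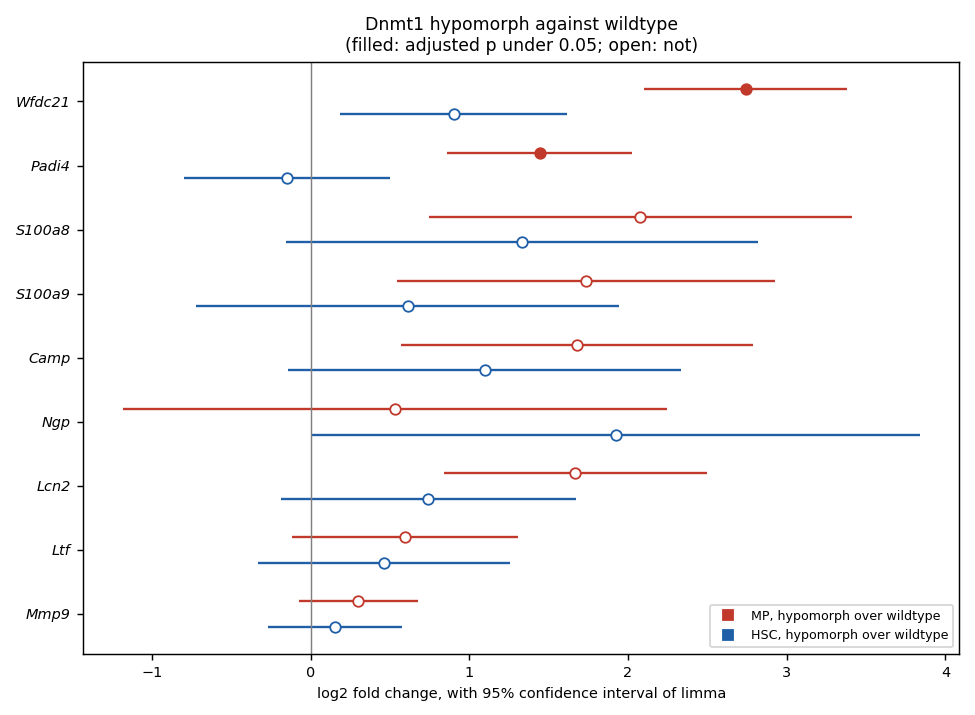
Log2 fold change of hypomorph over wildtype (horizontal axis) for the 9 genes tested, in MP (red) and HSC (blue), with the 95% confidence interval of limma as a line and filled points for an adjusted p under 0.05. Wfdc21 at 2.74 and Padi4 at 1.44 in MP are the filled points, and no point is filled in HSC.

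In stem cells of hypomorph mice 0 of the 9 genes passed the threshold, in a comparison in which 10.8% of all genes were called in either direction, 5.37% higher and 5.41% lower. That background varied with the fit, from 1375 genes called to 139 with the HSC arrays fitted alone, 453 without wildtype HSC replicate 2 and 688 without hypomorph HSC replicate 2. Under every other setting of the fit 0 were called as well. Fold changes were positive in 8 of 9, with a median of 0.74 against -0.11 over all genes, and in 2 of 9 every hypomorph HSC array lay above both wildtype arrays, which held for 13.2% of all genes, and in 0 of 9 every hypomorph array lay below, against 22.4%.

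Wfdc21 measured 6.09, 5.54 and 6.43 in hypomorph HSC, against 5.09 and 5.14 in wildtype HSC. The groups did not overlap, and the difference was 0.90 (SE 0.33, limma adjusted p = 0.10). Ngp measured 10.08, 8.41 and 9.56 in hypomorph HSC, against 8.37 and 6.49 in wildtype HSC. Hypomorph replicate 2 exceeded wildtype replicate 1 only narrowly, and the difference of 1.92 (SE 0.89) had an adjusted p of 0.190. It was 0.98 without wildtype replicate 2 and 2.86 without wildtype replicate 1.

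S100a8 measured 10.75, 9.45 and 10.17 in hypomorph HSC, against 9.66 and 7.93 in wildtype HSC. Wildtype replicate 1 lay inside the hypomorph range and replicate 2 below it, and the difference was 1.33 (SE 0.69, limma adjusted p = 0.243). S100a9 measured 8.24, 7.60 and 8.17 in hypomorph HSC, against 8.23 and 6.55 in wildtype HSC, a difference of 0.61 (SE 0.62, adjusted p = 0.574) that was -0.23 without wildtype replicate 2. Camp measured 8.81, 7.61 and 7.82 in hypomorph HSC, against 7.67 and 6.30 in wildtype HSC, a difference of 1.10 (SE 0.58, adjusted p = 0.248). In these genes the spread between the 2 wildtype arrays, 1.73 for S100a8, 1.68 for S100a9 and 1.37 for Camp, was larger than the difference between the genotypes.

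Lcn2 measured 6.64, 5.40 and 5.06 in hypomorph HSC, against 5.25 and 4.66 in wildtype HSC, and differed by 0.74 (SE 0.43, limma adjusted p = 0.299). Ltf measured 7.25, 6.43 and 5.89 in hypomorph HSC, against 6.36 and 5.76 in wildtype HSC, and differed by 0.46 (SE 0.37, adjusted p = 0.467). The genotypes overlapped in both genes, and hypomorph replicate 1 was the highest array in each. Padi4 measured 8.10, 7.40 and 7.71 in hypomorph HSC, against 7.36 and 8.40 in wildtype HSC, so the wildtype arrays enclosed the hypomorph ones and the difference was -0.15 (SE 0.30, adjusted p = 0.798). Mmp8 lay between 3.94 and 4.07 in hypomorph HSC and between 3.57 and 3.85 in wildtype HSC, without overlap, and differed by 0.30 (SE 0.22, adjusted p = 0.461) in the fit without the filter. The brighter Mmp9 probe set lay between 4.47 and 4.76 in hypomorph HSC and between 4.42 and 4.56 in wildtype HSC.

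The response to reduced Dnmt1 was then compared between the cell types through the difference of both effects, MP minus HSC. For Wfdc21 this difference was 1.84 (SE 0.45, limma adjusted p = 0.0307) and for Padi4 1.59 (SE 0.41, adjusted p = 0.0368), so in both the effect was larger in MP. These 2 of 9 genes were called, against 2.35% of all genes with a difference in that direction. The difference was 0.93 for Lcn2, 1.12 for S100a9, 0.75 for S100a8 and 0.58 for Camp, with adjusted p between 0.348 and 0.676, and -1.39 (SE 1.19, adjusted p = 0.502) for Ngp. The calls were fragile. Without a single array the adjusted p of Wfdc21 ranged from 0.0138 to 0.0955 and that of Padi4 from 0.00679 to 0.161. Neither passed without hypomorph HSC replicate 2 (0.0809 and 0.10), wildtype HSC replicate 2 (0.0955 and 0.161), hypomorph MP replicate 1 (0.0619 and 0.0569) or 2 (0.0626 and 0.0939), or wildtype MP replicate 1 (0.0846 and 0.0884) or 3 (0.0800 and 0.10), where each pair gives Wfdc21 and then Padi4. Padi4 alone also missed the threshold without hypomorph MP replicate 3 (0.0692) and after centring arrays on the median (0.0539).

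The genes differed in where they were highest, and the comparisons between cell types share the wildtype HSC and MP arrays. Wfdc21 and Lcn2 were highest in hypomorph MP, at 9.06 ± 0.66 and 7.48 ± 0.17 (SD, n = 3), and next in wildtype MP, at 6.32 ± 0.18 and 5.81 ± 0.26 (SD, n = 3). In both genes wildtype MP overlapped hypomorph HSC, which averaged 6.02 ± 0.45 for Wfdc21 and 5.70 ± 0.83 for Lcn2 (SD, n = 3). Padi4 ran the other way, with 6.5 ± 0.20 in hypomorph MP and 5.06 ± 0.10 in wildtype MP, against 7.73 ± 0.35 in hypomorph HSC (SD, n = 3 each) and 7.88 ± 0.73 in wildtype HSC (SD, n = 2). Its order was thus both kinds of HSC, which did not differ beyond their spread, then hypomorph MP, then wildtype MP and B progenitors, which overlapped. The values of S100a9, Camp, Ngp and Ltf were highest on average in hypomorph HSC, but neighbouring groups in that order overlapped, apart from wildtype HSC and wildtype MP for S100a9.

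Among hypomorph cells, MP were compared with HSC. Wfdc21 was higher by 3.04 (SE 0.30, limma adjusted p = 1.32e-05) and Lcn2 by 1.79 (SE 0.39, adjusted p = 0.00747), while Padi4 fell by 1.23 (SE 0.27, adjusted p = 0.00815). These 2 of 9 genes called higher compare with 4.18% of all genes, and the 1 called lower with 7.47%. The same 3 genes had groups without overlap, which held for 11.6% of all genes in the higher and 15.9% in the lower direction. For S100a8, S100a9, Camp, Ngp and Ltf the differences were 0.28, -0.52, -0.40, -1.04 and -0.68, with adjusted p from 0.242 to 0.864.

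Among wildtype cells, MP differed from HSC in Wfdc21 and Padi4. Wfdc21 was higher by 1.20 (SE 0.33, limma adjusted p = 0.0141), in a comparison in which 13.8% of all genes were called higher, and had an adjusted p of 0.0615 and 0.0660 without wildtype HSC replicate 1 or 2. Padi4 fell by 2.82 (SE 0.30, adjusted p = 1.65e-05), or 7.08-fold, where 18% of all genes were called lower and 31.8% in either direction. S100a9 differed by -1.65 (SE 0.62, adjusted p = 0.0575). It passed the threshold without wildtype MP replicate 2 (0.0337) or hypomorph MP replicate 1 (0.0418), and at 0.0309 to 0.0495 under 4 other settings. The difference was -0.81 without wildtype HSC replicate 1 and -2.49 without wildtype HSC replicate 2. Groups did not overlap in 2 genes with higher MP, Wfdc21 and Lcn2, and in 3 with lower MP, Padi4, Ltf and S100a9, against 23.1% and 33.6% of all genes. Lcn2 differed by 0.86 (SE 0.43, adjusted p = 0.148) and Ltf by -0.82 (SE 0.37, adjusted p = 0.109). Mmp8 differed by 0.64 (SE 0.22, adjusted p = 0.0523) in the fit without the filter, at levels of 4.44 and below.

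B progenitors served as a lineage outside the myeloid one. S100a8 measured 4.54 and 7.22, S100a9 3.53 and 5.37, Camp 4.40 and 6.25, Ngp 5.5 and 7.42, and Lcn2 2.97 and 4.27 on the 2 arrays. Replicate 1 was the lower array in each of these 5 genes. Relative to wildtype HSC, 5 of 9 genes were called lower and 0 higher, where 30.2% of all genes were called lower, 14.8% higher and 45% in either direction. These were Padi4 at -2.83 (SE 0.33, limma adjusted p = 1.12e-05), S100a9 at -2.94 (SE 0.68, adjusted p = 0.00283), S100a8 at -2.91 (SE 0.76, adjusted p = 0.00627), Lcn2 at -1.34 (SE 0.47, adjusted p = 0.0330) and Camp at -1.66 (SE 0.63, adjusted p = 0.0460). The same 5 had groups without overlap, against 44.4% of all genes, and Wfdc21 and Mmp9 lay without overlap in the other direction by 0.11 and 0.27, against 23.8%. Without B progenitor replicate 1 only Padi4 was still called, with an adjusted p of 0.110 for S100a8, 0.0537 for S100a9, 0.325 for Lcn2 and 0.430 for Camp. Without wildtype HSC replicate 1 the adjusted p was 0.0797 for S100a8, 0.176 for Lcn2 and 0.321 for Camp, and Camp also missed the threshold, at 0.0507 to 0.0575, without any of hypomorph HSC replicate 2, hypomorph MP replicate 2 and the 3 wildtype MP arrays. Other settings also ended the call of Camp, at 0.0533 to 0.129 under 6 of them, and that of Lcn2, at 0.0617 after centring and 0.0688 with array weights.

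Relative to wildtype MP, B progenitors had lower Lcn2 at -2.19 (SE 0.43, limma adjusted p = 0.00118), S100a8 at -2.44 (SE 0.69, adjusted p = 0.0131) and Wfdc21 at -1.09 (SE 0.33, adjusted p = 0.0198). These 3 of 9 genes compare with 24.7% of all genes called lower, and 0 called higher with 11.2%, in a comparison with 35.9% called in either direction. Padi4 did not separate the cell types, with 5.34 and 4.77 in B progenitors against 5.09, 5.13 and 4.95 in wildtype MP, a difference of -0.003 (interval -0.65 to 0.65). Groups lay without overlap in 4 genes with lower B progenitors, the 3 called and Ngp, against 37.7% of all genes, and in Mmp9 in the other direction, against 21.4%. The call of S100a8 was lost without B progenitor replicate 1 (adjusted p = 0.290) or wildtype MP replicate 2 (0.0504), and that of Wfdc21 without B progenitor replicate 1 (0.0911) or 2 (0.0849) or wildtype MP replicate 2 (0.0607). S100a9, at -1.29 and an adjusted p of 0.125, differed by -0.37 without B progenitor replicate 1 and by -2.21 without B progenitor replicate 2.

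**Figure D3:**
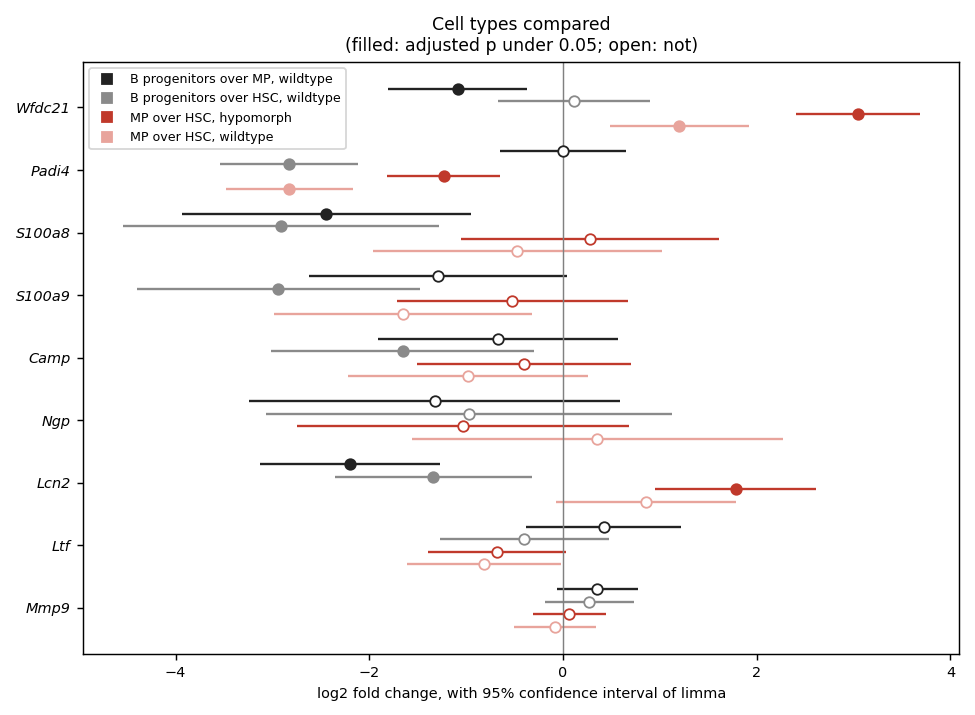
Log2 fold change between cell types (horizontal axis) for the 9 genes tested, with the 95% confidence interval of limma as a line and filled points for an adjusted p under 0.05. Padi4 is lower in MP than in HSC by 1.23 in hypomorph and 2.82 in wildtype cells, whereas Wfdc21 is higher in MP by 3.04 in hypomorph and 1.20 in wildtype cells.

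The arrays of a group agreed poorly for part of these genes. The SD between arrays, pooled over the 5 groups, was 1.25 for Ngp, 0.96 for S100a8, 0.85 for S100a9, 0.79 for Camp and 0.57 for Lcn2, all above 0.565, the 95th percentile of the 12745 genes. Ngp ranked 9 and S100a8 ranked 27 from the top. The median of all genes was 0.298, and the SD was 0.47 for Ltf, 0.41 for Wfdc21, 0.36 for Padi4 and 0.15 for Mmp9.

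**Figure D4:**
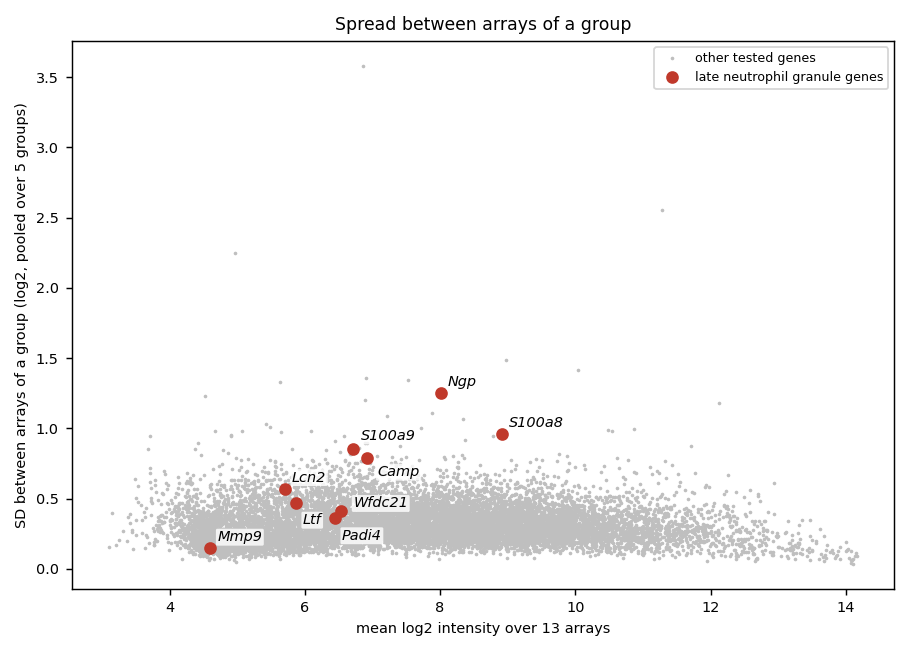
SD between arrays of a group, pooled over the 5 groups (vertical axis), against the mean log2 intensity over 13 arrays (horizontal axis) for the 12745 genes tested (grey) and the 9 late neutrophil granule genes among them (red). Ngp at 1.25 and S100a8 at 0.96 lie at the top of the cloud, Wfdc21 and Padi4 within it.

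The deviations from the group means were shared by some genes and not by others. S100a8, S100a9, Camp and Ngp lay below their group means in hypomorph MP replicate 1, by 0.69, 1.02, 0.82 and 2.14, and above them in hypomorph HSC replicate 1, by 0.63, 0.24, 0.73 and 0.73. They were also all higher in wildtype HSC replicate 1 than in replicate 2, and in B progenitor replicate 2 than in replicate 1. Over the 13 arrays the Pearson correlation of these deviations was 0.94 for S100a8 with S100a9, 0.93 for S100a8 with Camp and 0.75 for S100a8 with Ngp. Lcn2 and Ltf correlated at 0.93 with each other and at 0.43 to 0.79 with these 4 genes. For Wfdc21 the deviations correlated at -0.02 to 0.28 with those of the 4 genes, and for Padi4 at -0.31 to -0.07. Those of the dim gene Mmp9 correlated at 0.54 to 0.74 with the 4 genes and at 0.74 with Wfdc21. These coefficients describe 13 arrays that share their normalization, and in the groups of 2 arrays the deviations mirror each other.

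**Figure D5:**
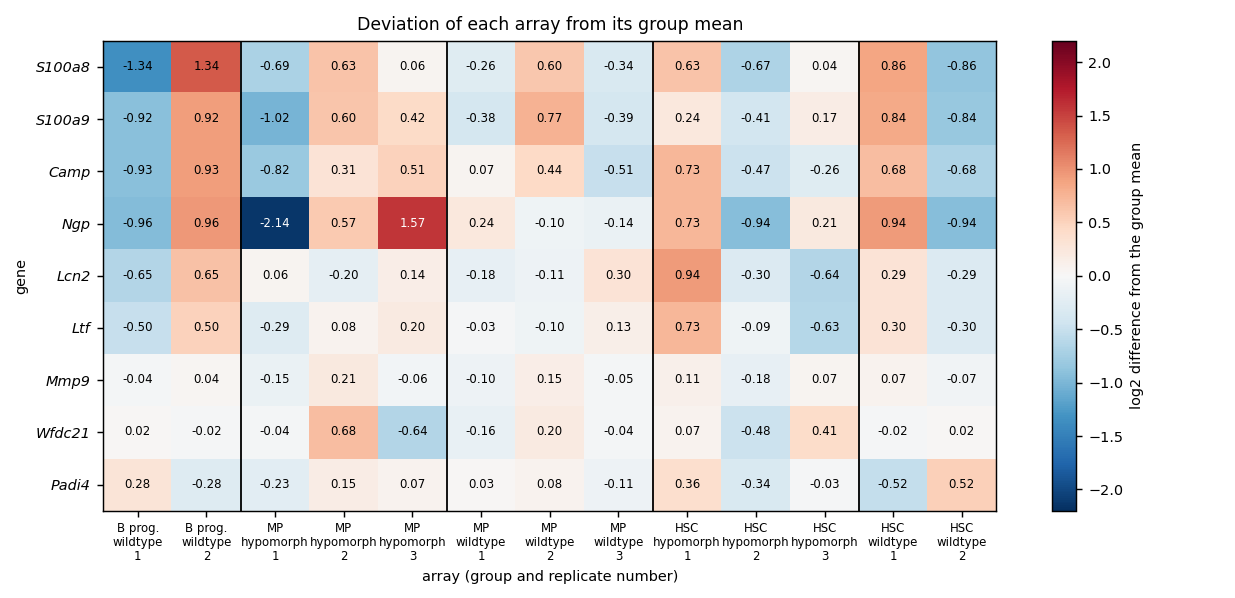
Log2 deviation of each array (columns, by group and replicate number) from its group mean for the 9 genes tested (rows), with red above and blue below the mean. S100a8, S100a9, Camp and Ngp share their sign on hypomorph MP replicates 1 to 3 and on all HSC and B progenitor arrays other than hypomorph HSC replicate 3, while Wfdc21 and Padi4 follow no such pattern.

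Other genes of neutrophil maturation were examined as lists. A mixed list of primary granule genes and other genes of that stage, such as promyelocyte markers, had 8 tested genes. In MP 0 were called in either direction, with a median of 0.21. In HSC 5 were called higher and 0 lower, where 5.37% of all genes were called higher. There 6 of the 8 differences were positive, with a median of 1.54. The largest of these rises were Ctsg (cathepsin G) at 3.42 (SE 0.39, limma adjusted p = 0.000153), the promyelocyte marker Ms4a3 at 3.27 (SE 0.42), Cst7 at 2.27 (SE 0.28) and Nkg7 at 1.88 (SE 0.27). The difference of the effects, MP minus HSC, was called lower for 3 of the 8, against 3.27% of all genes. These were Ctsg at -3.24 (limma adjusted p = 0.00444), Ms4a3 at -2.93 (0.0113) and Cst7 at -2.02 (0.0103). This direction is opposite to that of Wfdc21 and Padi4. The 3 genes were high in MP of both genotypes, on a scale whose highest value was 14.99. Hypomorph and wildtype MP averaged 13.92 and 13.75 for Ctsg, 13.02 and 12.67 for Ms4a3, and 11.73 and 11.47 for Cst7. Mpo (myeloperoxidase) differed by -0.06 in MP and 0.62 in HSC, and Elane (neutrophil elastase) by 0.45 in MP and -0.12 in HSC, none of which passed. In wildtype cells all 8 were called higher in MP than in HSC (13.8% of all genes), with Ctsg at 6.56, Ms4a3 at 6.52, Elane at 6.42 and Cst7 at 5.92, where the late genes had 1 higher and 1 lower of 9. Among hypomorph cells 7 of 8 were called higher in MP (4.18% of all genes), with Elane at 6.98, Cst7 at 3.90, Ms4a3 at 3.59 and Prtn3 at 3.48. Against wildtype MP, B progenitors were called lower for all 8 (24.7% of all genes), with Mpo at -9.84, Ctsg at -9.17, Prtn3 at -9.16 and Ms4a3 at -7.88. Against wildtype HSC they were called lower for 5 of 8 (30.2% of all genes), with Mpo at -7.47, Prtn3 at -5.93, Nkg7 at -4.16 and Ctsg at -2.61, while Elane differed by -1.06 (adjusted p = 0.124).

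Of 43 other listed genes of maturing neutrophils, 35 had a probe set and 27 were tested, and the same shares of all genes are the background for this list and the next. In MP 1 was called higher and 0 lower. This was Trem1, an activating receptor of neutrophils, with 8.51, 8.41 and 8.55 in hypomorph MP against 7.18, 7.10 and 6.84 in wildtype MP, a difference of 1.45 (SE 0.22, limma adjusted p = 0.00678). In HSC 5 were called higher and 0 lower, with Hdc (histidine decarboxylase) at 2.11, Clec4e at 1.85, Clec4d at 1.48 and Itgb2 at 1.04 as the largest. The difference of effects was called higher for 1, Pglyrp1, a peptidoglycan recognition protein of granules, at 2.33 (SE 0.49, adjusted p = 0.0161), and lower for 2, Hdc at -1.72 and Clec4e at -1.59. Pglyrp1 had 8.72, 9.19 and 8.71 in hypomorph MP against 7.10, 7.84 and 7.29 in wildtype MP, but 8.20, 7.22 and 8.16 in hypomorph HSC against 9.17 and 8.26 in wildtype HSC. Neither of its single effects was called (adjusted p = 0.0684 in MP and 0.148 in HSC). In hypomorph MP against hypomorph HSC 15 of the 27 were called higher, led by Hp (haptoglobin) at 4.71, Trem3 at 4.47, Hdc at 4.25 and Cybb, a subunit of the phagocyte oxidase, at 4.13, and 1 lower, Clec4e at -1.56. In wildtype MP against wildtype HSC 13 were called higher, led by Hdc at 5.97, Hp at 5.61, Cybb at 4.11 and Trem3 at 3.31, and 2 lower, Pglyrp1 at -1.31 and Asprv1 at -0.78. B progenitors had 12 called lower against wildtype HSC, with Pglyrp1 at -4.88, Clec4e at -4.70 and Lyz1 (lysozyme) at -3.77, and 1 higher, Cybb at 4.41. Against wildtype MP they had 18 called lower and 0 higher, with Hdc at -7.51, Hp at -6.74, Clec4d at -5.10 and Clec4e at -4.72.

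Of 10 tested regulators of granulocyte development, 0 were called in MP and 1 was called lower in HSC, Runx1 at -1.12 (SE 0.28, limma adjusted p = 0.0207). Cebpa, which starts the granulocytic programme, differed by 0.40 (adjusted p = 0.487) in MP and by 0.89 (0.0693) in HSC, and the repressor Gfi1 by 0.59 (0.351) in MP and 0.78 (0.140) in HSC. Cebpe was on the list, and no probe set of a single symbol stood for it. The same 4 regulators were called higher in MP than in HSC in hypomorph and wildtype cells, and 0 lower. These were Irf8, a factor of the monocyte lineage, together with Cebpd, Cebpa and Gfi1. In hypomorph cells they were higher by 3.52, 2.82, 1.73 and 1.22 in that order, and in wildtype cells by 4.04, 2.57, 2.22 and 1.41. B progenitors had 7 called lower against wildtype HSC, with Cebpd at -3.90 and Csf3r (the receptor of granulocyte colony-stimulating factor) at -3.73, and 2 higher, Lef1 at 5.29 and Irf8 at 4.0. Against wildtype MP they had 7 called lower, with Cebpd at -6.47, Cebpa at -4.33 and Csf3r at -3.44, and 1 higher, Lef1 at 5.82.

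Some of the marker lists of other cell types differed between genotypes in mean level, through part of their members. Of all genes, 5.37% were called higher and 5.41% lower in hypomorph HSC, and 0.337% higher and 0.251% lower in hypomorph MP. The mean of 6 monocyte and macrophage markers was 5.96 to 6.22 on hypomorph HSC arrays against 5.15 to 5.21 on wildtype HSC arrays, and 3 of the 6 were higher in hypomorph HSC. Ccr2, at 7.77 in hypomorph HSC against 5.08 in wildtype HSC, and F13a1, at 6.31 in hypomorph HSC against 3.38 in wildtype HSC, were called, while Csf1r averaged 6.24 in hypomorph HSC and 6.96 in wildtype HSC. In MP this list lay at 8.24 to 8.35 in hypomorph against 8.59 to 8.66 in wildtype arrays, with 0 called. Of the 8 myeloid progenitor markers, 2 were called higher in hypomorph HSC, Ms4a3 and Fcgr3, with Fcgr3 higher by 2.72, and 4 of 8 had a positive difference. In hypomorph MP 1 was called, Fcgr3 at 10.03 against 8.92 in wildtype MP. Of the 6 HSC markers 5 were lower in hypomorph MP, with a median difference of -0.73 and 0 called, and in HSC Hlf was called lower and Slamf1 higher. The mean of 4 late erythroid markers was 5.63 to 5.87 in hypomorph HSC against 5.01 to 5.44 in wildtype HSC, and 6.16 to 6.57 in hypomorph MP against 5.52 to 6.03 in wildtype MP. Slc4a1 differed most, at 6.68 in hypomorph HSC against 4.68 in wildtype HSC and at 6.63 in hypomorph MP against 4.46 in wildtype MP, Car1 averaged 10.33 in hypomorph MP and 10.90 in wildtype MP, and 0 of the 3 tested were called. The means of 4 platelet markers overlapped between genotypes, at 7.47 to 7.93 in hypomorph HSC against 7.56 to 8.34 in wildtype HSC. In MP they lay at 8.05 to 8.44 in hypomorph against 8.09 to 8.41 in wildtype arrays. Of the 4, 1 was called lower in hypomorph HSC, where 5.41% of all genes were called lower. The mean of 4 T and NK markers lay between 4.16 and 4.36 on all HSC and MP arrays, with 0 called between genotypes. The part of these markers in the values of the late granule genes was not tested.

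The genes most like the late granule genes over the 13 arrays were found by correlation with the mean profile of the 10 genes. This profile averaged each gene's deviations from its own mean without scaling, so genes with wider swings weighed more. The genes listed were picked as the highest among all other genes tested, and their correlations carry no test. The highest Pearson correlation was that of Chil3, a chitinase-like secreted protein of neutrophils and macrophages, at 0.943. It was followed by Thyn1, Siva1, Pdap1, Tubb2a, Commd5, Tedc2, Scly, Cd3eap and 1700037H04Rik, at 0.936 down to 0.891. With group means removed, Chil3 again had the highest value, 0.937, followed by Rflnb, Racgap1, Tmem186, Syn2, Fkbp7, D630039A03Rik, Ociad1, Rer1 and Rab19, at 0.917 down to 0.880. Chil3 was the only gene on both lists of 10. It measured 6.65, 8.67 and 9.04 in hypomorph MP against 6.79, 7.10 and 5.85 in wildtype MP, and 9.48, 7.94 and 8.46 in hypomorph HSC against 7.43 and 4.61 in wildtype HSC. Hypomorph MP replicate 1 lay within the wildtype MP range and replicates 2 and 3 above it, whereas HSC did not overlap between genotypes, and no genotype effect was called (limma adjusted p = 0.359 in MP and 0.0681 in HSC).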

How the data were processed

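Cells were sorted by flow cytometry from bone marrow, and biotinylated cRNA was made from the total RNA of 35000 to 100000 cells by the Affymetrix small sample protocol, per the labels' protocols. The deposited values are log2 intensities that the authors made with RMA, per the submitters' processing notes, and no RMA version is recorded in the sources used. That the scale is log2 was read from the values, which ran from 1.93 to 14.99. The table held 13 arrays normalized together and 11 of the same arrays (HSC and MP) normalized again, which served as an alternative.

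Of 45101 probe sets, 34958 had 1 gene symbol in the platform annotation, 932 had several and 9211 had none. Only those with 1 symbol were named. Each gene was represented by its brightest probe set and tested if 2 or more arrays lay at or above 4.64, the overall median, which left 12745 of 18194 genes. All 13 arrays entered a single fit with 5 groups and no covariate in limma 3.58.1 (R 4.3.3, Python 3.11.15), with 8 residual degrees of freedom. The 7 contrasts were adjusted by Benjamini-Hochberg over all genes tested and called under 0.05. The procedure was tested on simulated data. Intervals are 95% confidence intervals of limma.

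The 10 genes, the other lists and the alternatives were chosen with earlier results of these data known. The text names all 10 genes, the called genes of the other lists with the 4 largest changes per comparison, Cebpe, Cebpa, Gfi1, Mpo and Elane, and the 10 genes most like the mean profile by levels and the 10 by deviations from group means. Markers that describe a cell type list were named beside it, those of other cell types after their values were seen. The deviations of same-numbered replicates from their group means correlated at -0.04, 0.26 and 0.13 in MP and at -0.15 and -0.00 in HSC. These group means rest on few arrays, so the correlations cannot decide whether same-numbered replicates were paired. The main fit treated them as unpaired, and a fit with the replicate number as a block served as an alternative. For array weights, the gene-by-gene method of limma was used because its default method stopped before converging, a choice made after seeing the data.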

Additional observations from a re-analysis of the deposited data

Results flagged for a closer look

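In the main fit the effect of the hypomorph genotype differed between cell types for Wfdc21 and Padi4, 2 of the 9 genes tested, by a test of the difference itself. Neither gene passed when the replicate number entered the fit as a block. For Wfdc21 the effect was 2.74 (SE 0.30) in MP and 0.90 (SE 0.33) in HSC, and the difference of 1.84 (interval 0.88 to 2.80) had a limma adjusted p of 0.0307. All 3 hypomorph MP arrays and all 3 hypomorph HSC arrays lay above the wildtype arrays of their cell type. For Padi4 the effect was 1.44 (SE 0.27) in MP and -0.15 (SE 0.30) in HSC, and the difference of 1.59 (interval 0.72 to 2.46) had an adjusted p of 0.0368. All 3 hypomorph MP arrays lay above the wildtype MP arrays, while in HSC the genotypes overlapped. Without 1 array the adjusted p of these differences ranged from 0.0138 to 0.0955 for Wfdc21 and from 0.00679 to 0.161 for Padi4.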

How the results depend on the processing

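With the replicate number as a block, 1 of 9 genes was called in MP (Wfdc21, with Padi4 at an adjusted p of 0.0649) and 0 for the difference of effects (Wfdc21 at 0.0683 and Padi4 at 0.0771), where 59 and 375 of all genes were called against 75 and 717 without it. When the 11 HSC and MP arrays were normalized again, 3 were called in MP (75 of all genes) and 3 in wildtype MP against HSC (4001). With only the arrays compared in the fit, 4 were called in MP (164 of all genes) and 5 in wildtype MP against HSC (3866). With arrays centred on the median, which shifted the median of all genes by 0.10 in HSC, -0.06 in MP and -0.16 for the difference, 1 was called for the difference (656 of all genes) and 3 in B progenitors against HSC (5514). Array weights, from 0.34 to 4.79, gave 6 in MP, where 3901 of all genes were called, and 3 in B progenitors against HSC (4787). Without 1 array the number called was 1 to 3 in MP, 0 in every fit in HSC, 0 to 2 for the difference, 3 in every fit for hypomorph MP against HSC, 1 to 3 for wildtype MP against HSC, 1 to 5 for B progenitors against HSC and 1 to 3 against MP. Centring turned the direction of Ltf (-0.0227) and Mmp9 (-0.0103) for the difference and of Mmp9 (0.0673) in wildtype MP against HSC, and array weights that of Padi4 (0.0468) in B progenitors against MP. None of the values that changed sign was called. Without 1 array the log2 fold change spanned 0 for Camp in the difference (-0.10 to 1.26), hypomorph MP against HSC (-0.66 to 0.00971) and B progenitors against MP (-1.60 to 0.25). It did so for Ltf in the difference (-0.18 to 0.50) and in B progenitors against HSC (-0.90 to 0.10) and MP (-0.0829 to 0.92), and for Mmp9 in hypomorph MP against HSC (-0.0403 to 0.14). Ngp spanned 0 in MP (-0.25 to 1.60) and in MP against HSC of hypomorph (-1.82 to 0.0321) and wildtype cells (-0.59 to 1.29), and Padi4 in HSC (-0.67 to 0.37) and B progenitors against MP (-0.29 to 0.28). S100a8 spanned 0 in the difference (-0.12 to 1.61) and in MP against HSC of hypomorph (-0.0610 to 0.62) and wildtype cells (-1.33 to 0.39), and S100a9 in HSC (-0.23 to 1.45). The causes were not tested. Mmp8 and Mmp9 lay near or below the median of all values.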
